A study of Marchantia polymorpha and Arabidopsis thaliana and Oryza sativa Japonica Group with 116 samples.

Results

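The late salt response of rice wild-type seedlings, labelled NB, was read by setting 2 libraries taken after 24 h of 100 mM NaCl against 3 libraries taken at 0 h. These 5 samples were selected from the 116 samples of the series, of which 18 were rice, by their labels and by what the libraries resembled. The library labelled NB 24 h replicate 3 was left out for the latter reason, as described below. Seedlings grew for 7 days on 1/2 MS plates in 16 h of light and 8 h of dark, and salt was given in 1/2 MS with 100 mM NaCl. RNA came from tissue labelled only as seedlings. Beside these 5 libraries, 3 NB libraries at 2 h of 100 mM NaCl were used for comparison. So were 4 libraries of the mutant xlg1,4, with 2 at 24 h of NaCl and 2 at 0 h. The model of 14 libraries also held 2 libraries of xlg1,4 at 2 h of 100 mM NaCl. All had the same age, plates and light. No salt-free group at 24 h was used here, so NaCl cannot be told apart from the time that passed or from the transfer. The 37852 rice genes were listed by identifier alone, and no gene name, function, organ marker or sequence is attached to them here, so the label seedlings was not checked against organ markers and the mutated genes of xlg1,4 were not checked. In whole seedlings, fewer cells of a type and less RNA per cell cannot be told apart.

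Salt acts on a rice plant first as an osmotic stress, which limits water uptake, and later through sodium that builds up in roots and shoots. Plants are known to answer with abscisic acid signalling, with transport that keeps sodium out of the shoot or in vacuoles, with compatible solutes, and with slower growth and photosynthesis. Heterotrimeric G proteins pass signals from the cell surface, and XLG proteins are extra-large Gα-like subunits found in plants.

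Before any comparison, 3 rice libraries stood apart from their labels. The library labelled NB 24 h replicate 3 had its highest correlation with xlg1,4 0 h replicate 2 (Pearson r = 0.9923 over log2(CPM + 1), where CPM is a gene's counts per 1e6 counts of a library scaled by TMM). Its mean correlation was 0.962 with NB 24 h replicates 1 and 2, and 0.99 with the xlg1,4 0 h libraries. The library labelled xlg1,4 0 h replicate 3 was nearest to xlg1,4 2 h replicate 1 (r = 0.9884), and the one labelled xlg1,4 2 h replicate 3 was nearest to xlg1,4 24 h replicate 2 (r = 0.9904). The column of xlg1,4 24 h replicate 3 held no counts. Some libraries that were kept also had their nearest library under another label. NB 24 h replicate 2 was nearest to xlg1,4 24 h replicate 1 (r = 0.9883), against r = 0.9877 with NB 24 h replicate 1. Both xlg1,4 24 h libraries were nearest to the one labelled xlg1,4 2 h replicate 3 (r = 0.9891 and 0.9904). The 3 libraries labelled NB 24 h, xlg1,4 0 h and xlg1,4 2 h replicate 3 were left out of the model because of what they resemble. This is a choice made from the data, and results with them are given beside those without. Whether columns were exchanged was not tested.

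**Figure D1:**
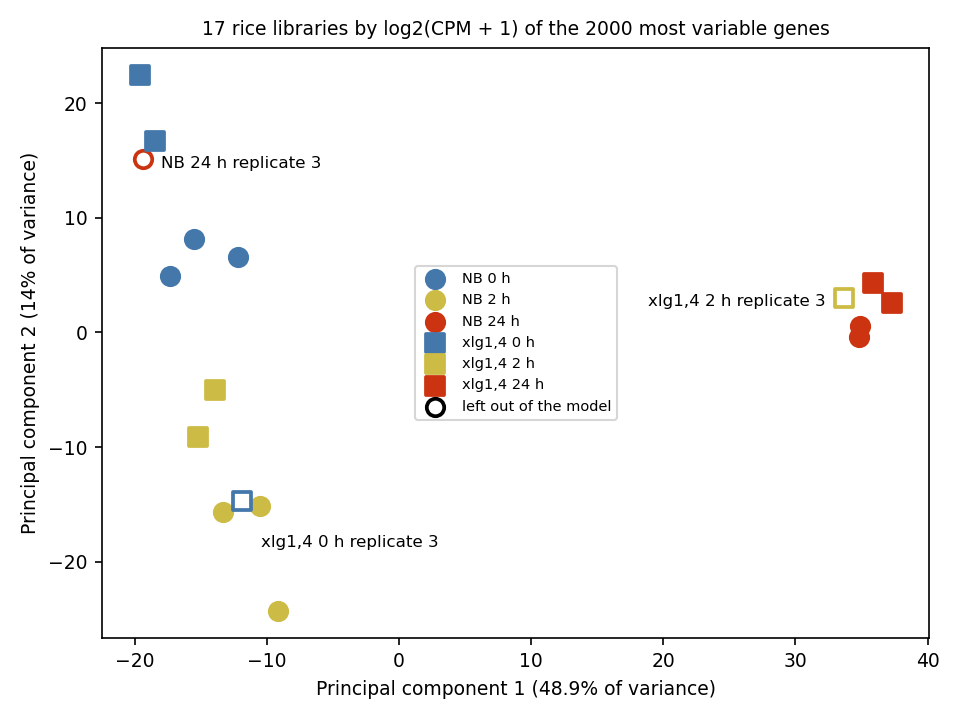
Principal components 1 and 2 of the 17 rice libraries with counts, from log2(CPM + 1) of the 2000 most variable genes, with circles for NB, squares for xlg1,4, colours for time and hollow marks for libraries left out. NB 24 h replicates 1 and 2 lie at 34.9 and 34.8 on component 1, which holds 48.9% of the variance, while NB 0 h libraries lie between -17.3 and -12.2 and the library labelled NB 24 h replicate 3 lies at -19.4.

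The library totals were 15.1 M and 18.1 M counts (M, 1e6 counts) in NB 24 h replicates 1 and 2, against 19 M, 19.1 M and 16.5 M in NB 0 h. All 17 rice libraries held 14.2 M to 21.4 M counts and detected 28412 to 28900 genes. The 100 genes with most counts held 13.8% and 16% of all counts at 24 h, against 17.3%, 17.6% and 18.9% at 0 h. Among 13625 genes with a mean of at least 10 CPM, NB 24 h replicates 1 and 2 differed by a median of 0.155 on the log2 scale. The NB 0 h pairs differed by 0.112 to 0.151, and the library labelled NB 24 h replicate 3 differed from the other 24 h libraries by 0.3 and 0.266. The comparison at 24 h therefore rests on 2 libraries that were slightly further apart than any pair at 0 h. Their Pearson r was 0.9877, against 0.9886 to 0.9907 for the NB 0 h pairs.

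The first question was which genes stood at another level in NB seedlings after 24 h of NaCl than at 0 h. Of 25517 genes tested, 2655 (10.4%) were called higher at 24 h and 2559 (10%) were called lower, 5214 (20.4%) in all, at an adjusted p under 0.05 (edgeR quasi-likelihood F test, Benjamini-Hochberg). Most changes were small. The median log2 fold change was 0.71 among genes called higher and -0.643 among genes called lower, with a median SE of 0.15 in both sets, against a median of -0.0228 over all genes tested. At least 2-fold changes were made by 755 of the genes called higher and 692 of those called lower. At least 4-fold changes were more numerous among falls, with 134 genes higher and 217 lower. At least 16-fold changes numbered 10 higher and 30 lower.

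The 2 libraries at 24 h and the 3 at 0 h did not overlap at 2642 of the 2655 genes called higher and at 2553 of the 2559 called lower. Over all genes tested, the 24 h libraries stood wholly above those at 0 h at 6010 genes (23.6%) and wholly below at 6611 (25.9%). The counts rest on few libraries at 24 h. Without NB 24 h replicate 1, 1600 genes were called higher and 985 lower, and without NB 24 h replicate 2, 1653 were called higher and 1423 lower. With the library labelled NB 24 h replicate 3 added, 48 were called higher and 23 lower, and with all 17 libraries as labelled 2 and 3.

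The library labelled NB 24 h replicate 3 was nearer to the mean of NB 0 h than to that of NB 24 h replicates 1 and 2 at 2374 of the 2655 genes called higher (89.4%) and at 2216 of the 2559 called lower (86.6%). The response described here is therefore that of the other 2 libraries.

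Falls and rises were spread unequally over genes of different abundance, as the plot of fold change against level shows. CPM are not divided by gene length, so the bands below sort genes by how many reads they took and not by transcript number. Among 2940 genes with a mean under 1 CPM over the 14 libraries of the model, 3.98% were called higher and 2.76% lower. Among 11668 genes with 10 to 100 CPM, 13.7% were called higher and 12.8% lower, so both directions were about equally frequent. Among 1887 genes with 100 to 1000 CPM, 12.3% were called higher and 26.3% lower. Of the 70 genes with at least 1000 CPM, 9 (12.9%) were called higher and 30 (42.9%) lower, and their median log2 fold change was -0.43.

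The error also differed with abundance. With genes ranked by mean CPM into 5 groups of equal size, the highest group had a median SE of 0.12 on the log2 scale and 35.5% called, and the lowest had a median SE of 0.49 and 7.33% called. The part of this precision in the shares above was not tested. Large changes were also counted by band. Of the genes with 100 to 1000 CPM, 1 was at least 4-fold higher and 14 were at least 4-fold lower. Of the genes with at least 1000 CPM, 0 were at least 4-fold higher and 14 were at least 4-fold lower. Of the 14 libraries behind these means 4 were at 24 h, so a gene that rose is sorted into a lower band than a gene that fell from the same higher level. Bands by the higher of the NB 24 h and NB 0 h means, which treat both directions alike and were added after the data were seen, held 79 genes of at least 1000 CPM, of which 12 (15.2%) were called higher and 33 (41.8%) lower. At least 4-fold changes among these 79 numbered 0 higher and 15 lower.

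**Figure D2:**
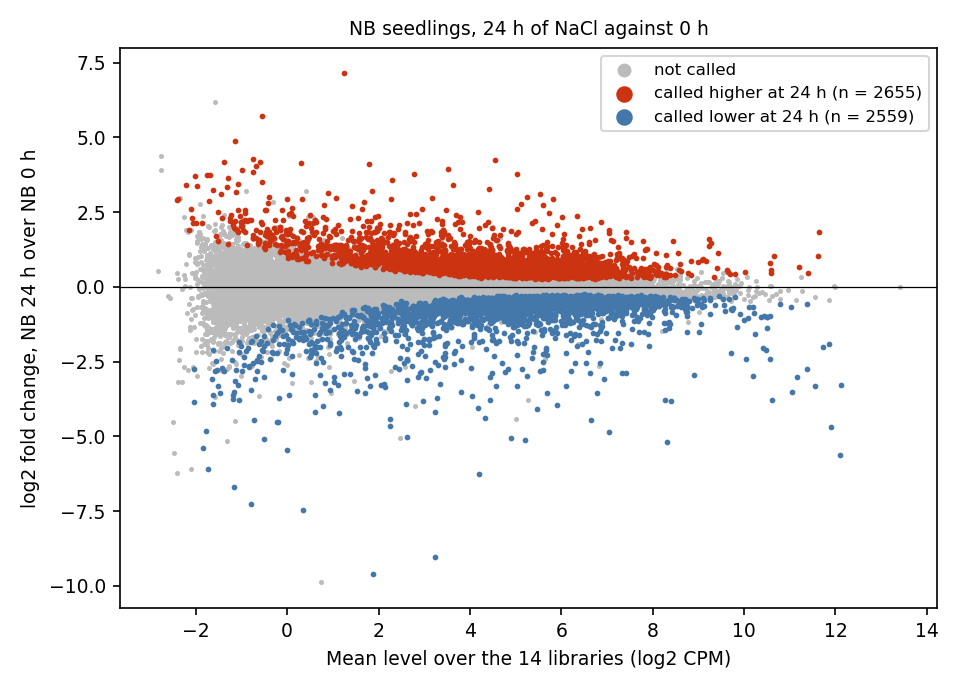
Log2 fold change of NB 24 h over NB 0 h against the mean level over the 14 libraries (log2 CPM) for the 25517 genes tested, with genes called higher in red, called lower in blue and others in grey. The most abundant called genes on the right fall below 0 more often than they lie above it, with 30 lower and 9 higher among genes of at least 1000 CPM.

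The 14 genes with at least 1000 CPM and an at least 4-fold fall, a set drawn up after their values were seen, lie on 9 chromosomes by their identifiers. Together they held 3960 and 6650 CPM in NB 24 h, against 40600, 41600 and 49400 CPM in NB 0 h. As shares of all counts this was 0.432% and 0.685% at 24 h, against 4.02%, 4.06% and 4.66% at 0 h. Each 24 h library was thus far below every 0 h library. Their log2 fold changes ranged from -5.62 to -2.03 with a median of -3. In NB 2 h the same genes held 52200, 61100 and 45100 CPM, which lay within or above the range of NB 0 h. In the library labelled NB 24 h replicate 3 they held 39500 CPM, which is near the NB 0 h values.

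For the 134 genes that were at least 4-fold higher in NB at 24 h, the low level at 0 h is part of how they were selected. Their summed level was 2210 and 2510 CPM at 24 h, against 385, 406 and 446 CPM at 0 h, and their median level per gene was 2.83 and 3.39 CPM, against 0.48, 0.484 and 0.578 CPM. By their mean at 24 h or at 0 h, whichever was higher, 29 of these genes had under 1 CPM, 64 had 1 to 10 CPM and 35 had 10 to 100 CPM. By the same measure, 47, 79 and 59 of the 217 genes that were at least 4-fold lower lay in these bands. At 2 h the 134 genes that were at least 4-fold higher summed to 777, 1120 and 778 CPM, which lies between the 0 h and the 24 h libraries. The 217 genes that were at least 4-fold lower summed to 5020 and 7810 CPM at 24 h, against 47900, 49200 and 58100 CPM at 0 h. Most of that sum at 0 h belonged to the 14 abundant genes. In NB 2 h these 217 genes summed to 59100, 68700 and 52200 CPM, which lay within or above the range of NB 0 h. Their median level per gene, however, was already lower at 2 h than in any NB 0 h library. It was 3.48, 4.18 and 3.79 CPM at 2 h, against 6.29, 4.95 and 5.01 CPM at 0 h and 0.791 and 0.753 CPM at 24 h. The high level at 0 h is part of how these 217 genes were selected.

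The whole sets of called genes took different shares of each library, by construction for the libraries of the comparison. Genes called higher took 18.2% and 17.1% of counts in NB 24 h, against 9.89%, 9.91% and 9.79% in NB 0 h. Genes called lower took 15.3% and 16% in NB 24 h, against 26.4%, 26.1% and 27% in NB 0 h. The NB 2 h libraries, which were not in that contrast, gave 11.6%, 12.1% and 11.4% for the genes called higher and 25.7%, 25.3% and 25.3% for those called lower, much nearer to 0 h than to 24 h. The library labelled NB 24 h replicate 3 gave 10.4% and 25.8%, and lay with the 0 h libraries in both sets.

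**Figure D3:**
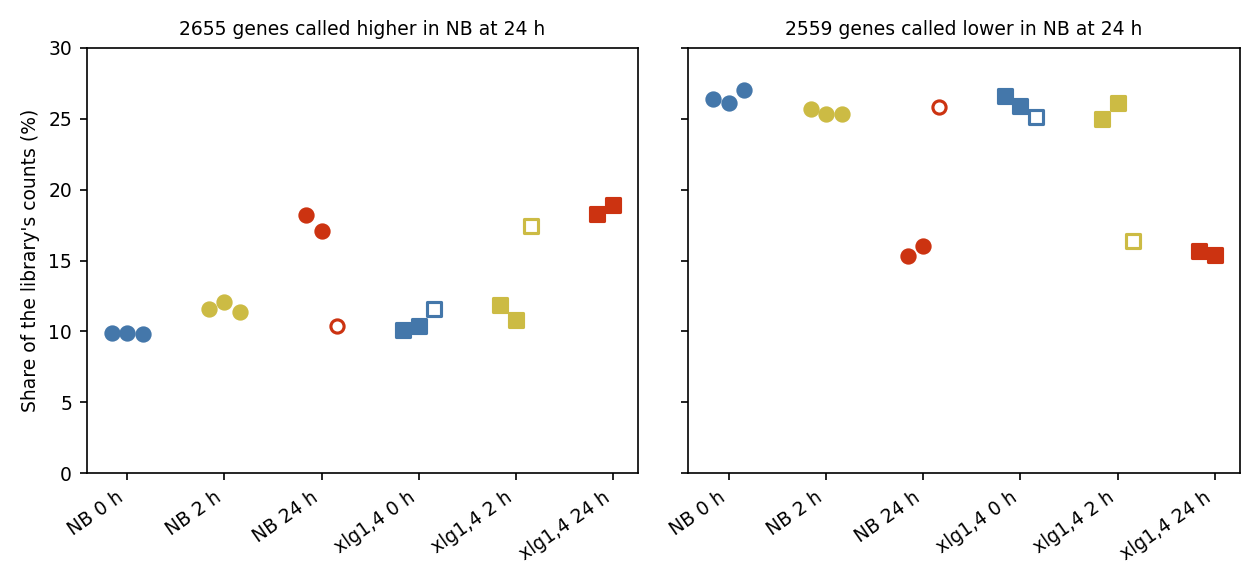
Share of each rice library's counts (%) taken by the genes called higher (left) and called lower (right) in NB at 24 h, by genotype and time, with hollow marks for libraries left out of the model. Within the model, the 24 h libraries of both genotypes stand above 17% on the left and at or below 16% on the right, and the 0 h libraries lie near 10% and 26%, as does the hollow mark of NB 24 h replicate 3 at 10.4% and 25.8%.

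A few genes held much of the summed loss. The 10 genes called lower with the largest loss of CPM held 27.7% of the summed loss, at 3470 and 6030 CPM in NB 24 h, against 36900, 37300 and 44600 CPM in NB 0 h. The 10 genes called higher with the largest gain held 19.4% of the summed gain, at 24400 and 25500 CPM in NB 24 h, against 12100, 12600 and 12500 CPM in NB 0 h. Complete loss or gain of counts could be read for few genes, since few genes with 0 counts in a whole group passed the filter on low counts. Of 8183 genes with 0 counts in both NB 24 h libraries 30 were tested, and of 7509 with 0 counts in all NB 0 h libraries 15 were. The bar is also unequal, as it takes 0 counts in 2 libraries at 24 h and in 3 at 0 h. Of 30 genes with 0 counts in both NB 24 h libraries, 6 were called lower, and of 15 genes with 0 counts in all NB 0 h libraries 0 were called higher, the highest of them reaching 0.518 CPM at 24 h.

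Identifiers were chosen by size, as the 2 genes with the largest called rise and the 2 with the largest called fall among genes with at least 10 CPM in the higher group and libraries that did not overlap, for which 2004 rises and 2085 falls qualified. Os01g0944100, on chromosome 1, had 60 and 59.2 CPM in NB 24 h, against 2.82, 2.21 and 4.5 CPM in NB 0 h. Its libraries at 24 h were nearly equal and far above those at 0 h. Its log2 fold change was 4.25 (SE 0.18, edgeR adjusted p = 4.7e-09). At 2 h it had 9.37, 9.06 and 8.17 CPM, between both other times, and was already called higher than at 0 h (log2 fold change 1.5, SE 0.18, edgeR adjusted p = 6e-04).

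Os02g0583700, on chromosome 2, had 6.39 and 14.4 CPM in NB 24 h, against 0.107, 0.807 and 0.899 CPM in NB 0 h. The 24 h libraries did not overlap those at 0 h but differed from each other by more than those of Os01g0944100. The log2 fold change was 4.12 (SE 0.6, edgeR adjusted p = 0.00035). At 2 h it had 1.84, 1.06 and 0.473 CPM, which overlapped the 0 h libraries, and the log2 difference between 2 h and 0 h of 0.94 (SE 0.67) had an edgeR adjusted p of 0.49.

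Os10g0550800, on chromosome 10, was nearly without counts at 24 h, with 0 and 1 counts in NB 24 h, against 568, 163 and 271 counts in NB 0 h. In CPM this was 0 and 0.0538 CPM at 24 h, against 30.3, 8.77 and 17.4 CPM at 0 h. The ratio of the summed levels was 0.00151, with an exact 95% counting interval of 3.82e-05 to 0.00843, and the edgeR adjusted p was 2.2e-05. At 2 h it had 12.4, 8.81 and 5.62 CPM, overlapping the 0 h libraries. The library labelled NB 24 h replicate 3 had 21.3 CPM, within the range of NB 0 h.

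Os03g0745000, on chromosome 3, had 0.487 and 0.269 CPM in NB 24 h, against 19.3, 26.5 and 41.5 CPM in NB 0 h. All 0 h libraries were far above both 24 h libraries, although they spread among themselves. Its log2 fold change was -6.26 (SE 0.5, edgeR adjusted p = 2.6e-06). The library labelled NB 24 h replicate 3 had 10.8 CPM, between the groups, and above the xlg1,4 0 h libraries, which had 5.15 and 7.62 CPM.

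These calls depend on the library that was left out. With the library labelled NB 24 h replicate 3 added to the model, Os01g0944100 was still called, at a log2 fold change of 3.73 (edgeR adjusted p = 0.034). Os02g0583700 had 3.58 (edgeR adjusted p = 0.088), Os10g0550800 had -1.41 (edgeR adjusted p = 0.49) and Os03g0745000 had -2.93 (edgeR adjusted p = 0.085), and none of these 3 was called. With all 17 libraries none of the 4 was called, and every fold change kept its sign.

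**Figure D4:**
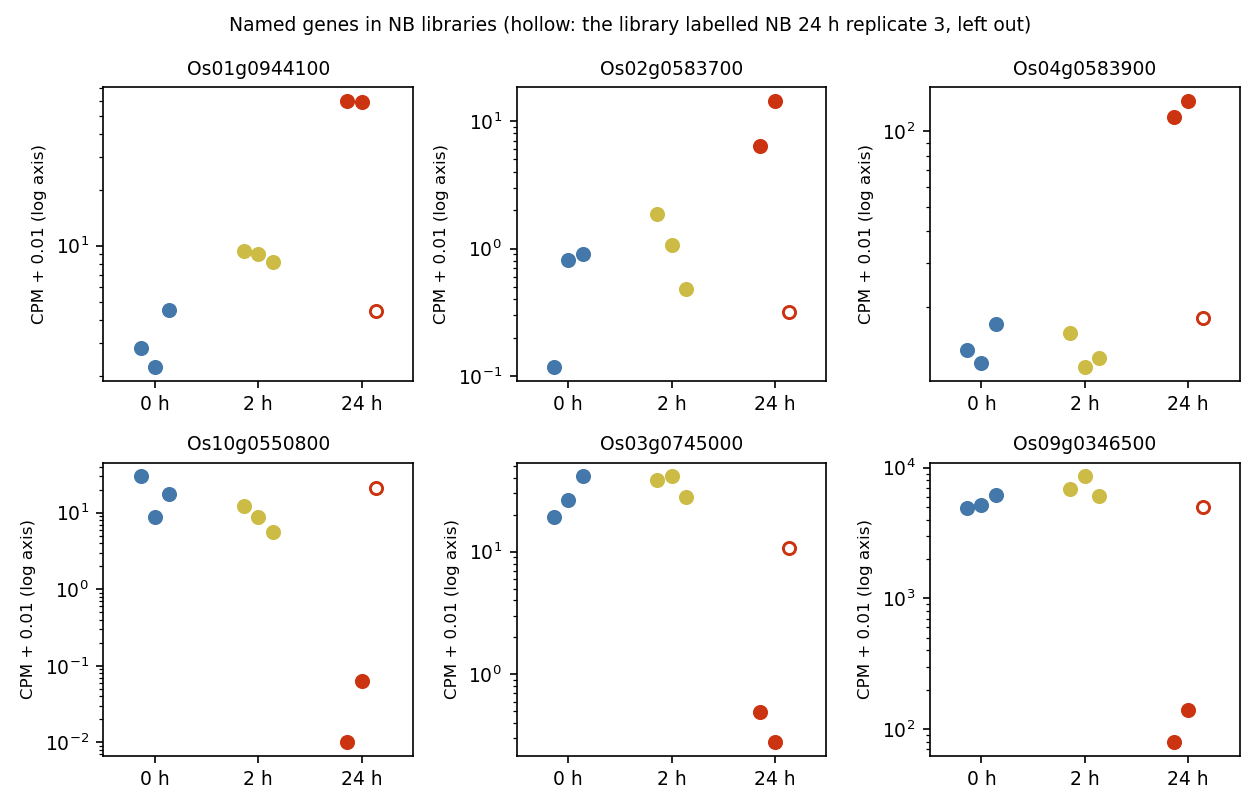
Level (CPM + 0.01, log axis) of the 6 named genes in each NB library at 0, 2 and 24 h, with the library labelled NB 24 h replicate 3 hollow. In each panel both NB 24 h libraries of the model lie apart from every 0 h and 2 h library, and the hollow mark lies nearer to the 0 h libraries than to the 24 h ones.

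The second question was how the late response differed from the early one, tested directly as NB 24 h against NB 2 h. At 24 h 1786 genes (7%) were called higher than at 2 h and 1754 (6.87%) were called lower, 3540 (13.9%) in all. At least 4-fold differences numbered 98 higher and 223 lower at 24 h, again with more falls than rises. Without NB 24 h replicate 1 these counts were 869 higher and 680 lower, and without NB 24 h replicate 2 they were 1058 and 1115. With the library labelled NB 24 h replicate 3 added they were 218 and 198. The 2 h libraries differed less from 0 h, with 671 genes (2.63%) called higher and 811 (3.18%) called lower at 2 h, 1482 (5.81%) in all. These comparisons share libraries with the one above, so their values are given side by side only.

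The same rule for naming, applied to 24 h against 2 h, took up Os02g0583700 and Os03g0745000 again, with log2 fold changes of 3.19 (SE 0.55, edgeR adjusted p = 0.0016) and -6.57 (SE 0.5, edgeR adjusted p = 1.8e-06). With the library labelled NB 24 h replicate 3 added, neither was called, at 2.64 (edgeR adjusted p = 0.14) and -3.24 (edgeR adjusted p = 0.05). It added 1 gene in each direction. Os04g0583900, on chromosome 4, had 114 and 132 CPM in NB 24 h, against 15.7, 11.5 and 12.5 CPM in NB 2 h. Its log2 fold change over 2 h was 3.21 (SE 0.15, edgeR adjusted p = 1e-08). At 0 h it had 13.5, 12 and 17.1 CPM, which overlapped the 2 h libraries, so the level stood apart at 24 h alone among these times.

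Os09g0346500, on chromosome 9, had 79.1 and 141 CPM in NB 24 h, against 6830, 8670 and 6100 CPM in NB 2 h. Its log2 fold change over 2 h was -6.03 (SE 0.3, edgeR adjusted p = 1.9e-08). At 0 h it had 4960, 5160 and 6140 CPM, so that the 2 h libraries overlapped the 0 h ones and only the 24 h libraries were low. With a log2 fold change over 0 h of -5.62, it is also the gene with the strongest fall among the 14 abundant ones. With the library labelled NB 24 h replicate 3 added, the difference from 2 h was 2.74 on the log2 scale for Os04g0583900 (edgeR adjusted p = 0.016) and -2.05 for Os09g0346500 (edgeR adjusted p = 0.32).

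The third question was whether the mutant xlg1,4 responded at 24 h as NB did. No library was compared in both genotypes' contrasts. Both contrasts came from the same model, however, with the same filter and a shared estimate of each gene's spread. The calls in NB and xlg1,4 are therefore not independent, and the part of this in the overlaps of calls was not tested. In xlg1,4, 3462 genes (13.6%) were called higher at 24 h than at 0 h and 3335 (13.1%) lower, 6797 (26.6%) in all. Of the 2655 genes called higher in NB, 2009 were also called higher in xlg1,4, which is 75.7% of the NB list and 58% of the xlg1,4 list, and 0 were called lower. Of the 2559 genes called lower in NB, 1766 were also called lower in xlg1,4, which is 69% of the NB list and 53% of the xlg1,4 list, and 0 were called higher. The direction was the same in xlg1,4 for 2623 (98.8%) of the genes called higher in NB and for 2524 (98.6%) of those called lower, while over all genes tested 49.2% had a positive and 50.8% a negative fold change in xlg1,4.

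Genes called higher in NB had a median log2 fold change of 0.722 in xlg1,4 and 0.71 in NB, and genes called lower had -0.617 in xlg1,4 and -0.643 in NB. The NB medians come from genes chosen on NB values. Of the 134 genes at least 4-fold higher in NB, 90 (67.2%) were called higher in xlg1,4 and 4 had the opposite sign. Of the 217 at least 4-fold lower, 169 (77.9%) were called lower in xlg1,4 and 5 had the opposite sign. The 14 abundant genes were each called lower in xlg1,4, 9 of them by at least 4-fold. Their sum was 7930 and 5420 CPM in xlg1,4 24 h, against 44900 and 37100 CPM in xlg1,4 0 h.

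**Figure D5:**
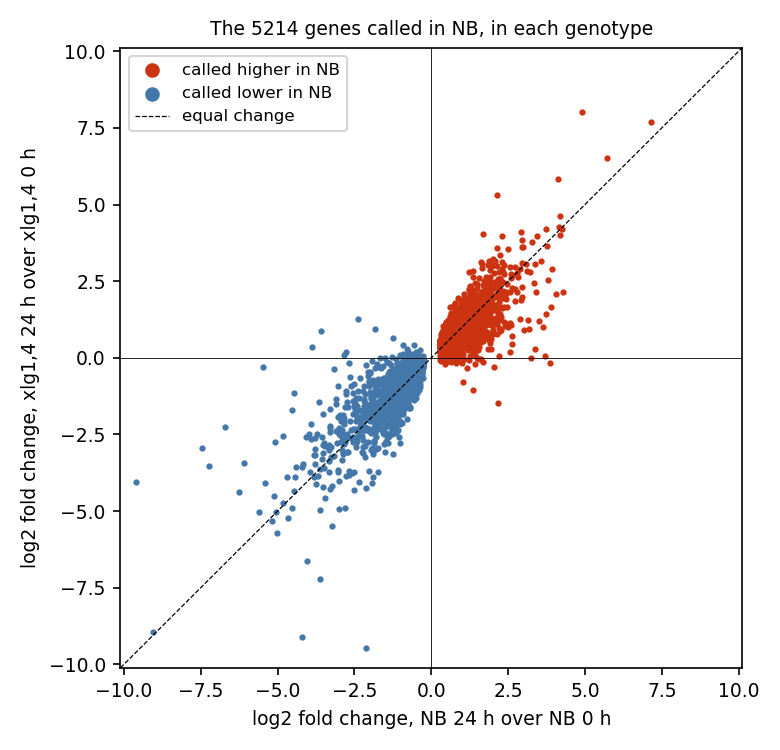
Log2 fold change at 24 h over 0 h in xlg1,4 (vertical axis) against that in NB (horizontal axis) for the 5214 genes called in NB, with the dashed line marking equal change. Genes called higher in NB lie above 0 in xlg1,4 in 2623 of 2655 cases and genes called lower lie below 0 in 2524 of 2559, with wide scatter about the line for large changes.

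The difference between the responses, xlg1,4 minus NB, was tested for each gene as an interaction. By edgeR 0 of 25517 genes (0%) were called, the smallest adjusted p was 0.4, and 1579 genes (6.19%) had an unadjusted p under 0.05. DESeq2, fitted without the filter on low counts and thus over another set of genes, called 2 genes and gave 1360 an unadjusted p under 0.05. These were Os08g0520600, with a log2 difference of 2.2 (DESeq2 adjusted p = 0.0028), and Os10g0536400, with a log2 difference of -1.5 (DESeq2 adjusted p = 0.0019), both named after their values were seen. Os08g0520600 had 50 and 46 counts in xlg1,4 24 h, against 156 and 146 in xlg1,4 0 h, and 32 and 47 counts in NB 24 h, against 511, 476 and 503 in NB 0 h, so it was lower at 24 h in both genotypes. Os10g0536400 had 113 and 109 counts in xlg1,4 24 h, against 482 and 375 in xlg1,4 0 h, and 220 and 224 counts in NB 24 h, against 285, 282 and 240 in NB 0 h.

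The interaction had a median SE of 0.28 on the log2 scale, and of 0.23 and 0.22 at genes called higher and lower in NB, which limits what could be called gene by gene, and a p that misses the threshold does not show that the genotypes responded alike. For Os01g0944100 the xlg1,4 libraries had 76.9 and 69.9 CPM at 24 h, against 3.75 and 4.17 CPM at 0 h, and the log2 difference between the genotypes' responses was -0.04 (SE 0.27). For Os03g0745000 they had 0.188 and 0.403 CPM at 24 h, against 5.15 and 7.62 CPM at 0 h, and the log2 difference was 1.88 (SE 1.11, edgeR adjusted p = 0.82). For Os09g0346500 they had 180 and 154 CPM at 24 h, against 6210 and 4740 CPM at 0 h, and the log2 difference was 0.58 (SE 0.34, edgeR adjusted p = 0.82). Both 24 h libraries of xlg1,4 stood apart from both 0 h libraries in each of these genes.

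The called genes were spread over all 12 chromosomes, read from the digits of the identifiers. The share of tested genes that was called ran from 18.5% on chromosome 9 to 21.6% on chromosome 6, against 20.4% over all genes. The share called higher ran from 9.5% on chromosome 9 to 12% on chromosome 6. The share called lower ran from 9% on chromosomes 9 and 10 to 11.2% on chromosome 3.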

How the data were processed

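Total RNA from rice seedlings was extracted with RNeasy kits and made into Illumina libraries, per the labels' protocols. The authors deposited 1 table of raw counts per gene for rice, with whole-number counts in all libraries. The submitters' processing notes name STAR and IRGSP-1.0. Versions, the counting tool, the annotation, strand and the treatment of reads with several matches were not given in the sources used here, so near-identical genes may share reads. The table also had 1 column with no counts, which was not used.

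The counts were analysed with edgeR 4.0.16 in R 4.3.3. Genes passed filterByExpr (minimum count 10, minimum total 15), and libraries were scaled by TMM. Quasi-likelihood F tests used 1 model of 14 libraries with a mean per group (8 residual degrees of freedom), and p-values were adjusted over all 25517 genes tested by the Benjamini-Hochberg method. A gene was called at an adjusted p under 0.05. The SE of a fold change is the absolute log2 fold change divided by the square root of F. P-values measure the spread between libraries, which the labels call biological replicates without giving plants or plates. The intervals of count ratios cover counting error only. Total counts were 14.2 M to 21.4 M (M, 1e6) per library. Chi-square statistics per degree of freedom were 12.1 to 25.2 between replicates in the model, so none agreed within sampling noise.

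The members, the libraries left out and the lists were chosen with earlier results of these data known. Genes were named by size of fold change, among those with at least 10 CPM in the higher group and libraries that did not overlap. As the identifiers are not paired with names in the files used, planned lists of gene families, organ markers and promoter motifs were not used here. Alternatives were DESeq2 1.42.0, edgeR with the size factors of DESeq2, no filter on low counts, only the groups compared, a replicate block, all 17 libraries and, for each comparison, each library of its own groups left out in turn. The procedure was tested on simulated data with the same spread setting for every gene and no library unlike its label. That test does not bear on the libraries left out.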

Additional observations from a re-analysis of the deposited data

How the results depend on the processing

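The counts depend most on which libraries enter. With all 17 libraries as labelled, 2 genes were called higher and 3 lower at 24 h than at 0 h, and 0 and 0 than at 2 h by edgeR, where 3563 genes had an unadjusted p under 0.05 and DESeq2 called 337 in either direction. The genes called against 0 h were named after their values were seen. They were Os10g0345100 (log2 fold change 0.85) and Os12g0257500 (0.75) higher, and Os02g0582900 (-3.13), Os08g0189900 (-2.14) and Os06g0301400 (-1.32) lower, each with an edgeR adjusted p of 0.041. At each of them the xlg1,4 0 h replicates 1 and 2, without NaCl, also differed from every NB 0 h library in that direction. Os02g0582900 had 85 and 46 counts there, against 149, 271 and 190 in NB 0 h. Os10g0345100 had 351 and 417, against 227, 193 and 188. With NB 24 h replicate 3 added to the 14 libraries, an alternative chosen after seeing the data, 48 genes were called higher and 23 lower against 0 h, and 218 and 198 against 2 h. Leaving out each library of the compared groups in turn gave 1600 to 2237 genes called higher and 985 to 2054 lower against 0 h, and 869 to 1596 higher and 680 to 1420 lower against 2 h. The lowest values came without NB 24 h replicate 1, where the spread of the single 24 h library left is taken from the remaining groups.

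With only the groups compared, 1184 genes were called higher at 24 h than at 2 h, where fewer libraries estimate the spread. The other counts with that model, and those with DESeq2, its size factors in edgeR, no filter on low counts and the replicate block, were within 1.5 times the reported ones against 0 h and 2 h. Against 0 h, DESeq2 called 2816 higher and 2639 lower, and shared 5029 of the 5214 genes called by edgeR (96.5% of those, and 92.2% of its own 5455). The replicate block gave 2036 higher and 1893 lower against 0 h, 1319 and 1403 against 2 h, and 0 for the interaction by edgeR (1593 with an unadjusted p under 0.05). Deviations of same-numbered libraries from their group means correlated at -0.0012 and -0.13 between NB 24 h and NB 0 h. Between NB 24 h and NB 2 h they correlated at 0.26 and 0.27. Between xlg1,4 24 h and 0 h the value was 0.34, which both pairs share by construction with 2 libraries per group. No comparison had 3 such pairs with 24 h and the labels tie the numbers to nothing shared, so they were not taken as pairs.

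The interaction gave 2 genes with DESeq2, and 0 to 1 when each library of its groups was left out. The 1 gene, without NB 24 h replicate 2, was Os11g0210500 (log2 difference -4.4, SE 0.46, edgeR adjusted p = 0.0063), which had 1017 counts in NB 24 h replicate 1 and 220 in replicate 2. The cause was not tested for these moves unless stated. Of 96 recomputed values of the named genes, 82 kept direction and call, 14 lost the call and 0 changed sign. Without the libraries that had been left out, 80 of 80 values kept direction and call, in refits of the libraries from which the genes were chosen. The 14 were all in the fits with libraries that had been left out. In those fits only Os01g0944100 against 0 h and Os04g0583900 against 2 h kept the call, both with NB 24 h replicate 3 added and neither with all 17 libraries. Alternatives for gene lists were not run, since no list could be matched. With 2 libraries at 24 h, changes in genes of low counts were the least detectable.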

Other observations

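Neighbouring genes were described by how often they were called in the same and in opposite directions, with no test. In the order of the identifiers, the next tested gene was called higher after 15.5% of the genes called higher and after 10.1% of the genes not called. It was called lower after 13.3% of the genes called lower and after 9.8% of the genes not called. In opposite directions, the next gene was called lower after 8.67% of the genes called higher, and called higher after 7.9% of the genes called lower. Runs of at least 4 neighbours called in the same direction numbered 13 higher and 9 lower, with 56 and 38 genes. The longest higher run held 7 genes on chromosome 5, with log2 fold changes of 0.863 to 4.17 and a median of 2.61, and 5 of them were called higher in xlg1,4. The longest lower run held 6 genes on chromosome 8, with a median log2 fold change of -1.16, and all 6 were called lower in xlg1,4. These runs were found after the values were seen. Neighbours can be near-identical copies that share reads, and the part of shared reads in these runs was not tested.

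The library labelled xlg1,4 2 h replicate 3, which was left out, took 17.4% of its counts from the genes called higher in NB at 24 h and 16.4% from those called lower. The other xlg1,4 libraries at 2 h took 11.9% and 10.8% from the genes called higher and 25% and 26.1% from those called lower. The library labelled xlg1,4 0 h replicate 3 took 11.6% and 25.1%.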
